A study of Mus musculus with 10 samples.

Results

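The RNA of PD-L1 and of 7 related costimulatory and checkpoint genes was examined in Ly6Chigh monocytes sorted from mouse spleens on day 5 after myocardial infarction (MI) or sham surgery. The 8 genes are Cd274 (PD-L1), Pdcd1lg2 (PD-L2), Pdcd1 (PD-1), Cd80, Cd86, Icosl, Cd40 and Lgals9 (galectin-9). They were chosen by name, with earlier results of these data known. Each had 1 entry in all 10 libraries, and they were 8 of 24421 gene symbols. Levels are TPM (transcripts per 1e6 transcripts, a level per transcript length) divided by a scaling factor per library, called scaled TPM.

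The design held 3 groups, with 3 libraries from sham-operated WT mice (numbered 1, 2 and 3), 3 from infarcted WT mice (numbered 2, 3 and 4) and 4 from infarcted Foxp3DTR mice (numbered 1 to 4). All were adult male mice. The labels give C57BL/6 as the strain of the WT mice and Foxp3DTR as that of the others. In Foxp3DTR mice the Foxp3 promoter drives a human receptor for diphtheria toxin, which makes Foxp3+ regulatory T-cells (Tregs) sensitive to the toxin. MI was made by permanently tying the left anterior descending artery, and sham animals had the chest opened only. The protocol for ablation was 500 ng of toxin per mouse 2 days and 1 day before surgery and 250 ng 2 days after it. This protocol is attached to every sample. The labels do not say which groups received the toxin, but the study describes the infarcted WT mice compared with Foxp3DTR mice as toxin-treated. Whether the sham-operated WT mice received it was not clear from the sources used here. No sham-operated or untreated Foxp3DTR libraries were analysed here, so effects of genotype and Treg loss cannot be told apart. The study gives its replicates as animals, while the labels do not tie a library to an animal, and p-values measure the spread between these libraries.

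T- and B-cells were removed magnetically before monocytes were sorted, and the RNA input of each library was in the picogram range. The inferred depth was 3.48 to 9.33 M reads (M, 1e6) per library, with a median of 7.38 M. All 10 monocyte markers were above 1 TPM in every library. One library, WT sham replicate 3, stood apart, with a summed level of 10 T-cell markers of 161 scaled TPM against 13.3 and 26.4 in the other sham libraries. Its neutrophil and plasma cell marker sums, 1309 and 222 scaled TPM, were also the highest of the WT libraries. Marker sums differed between the MI groups too. T-cell markers summed to 7.83 to 14.0 scaled TPM in WT MI and 35.2 to 128 in Foxp3DTR MI libraries, and neutrophil markers to 169 to 483 and 1122 to 2769. In bulk RNA, fewer cells of a type and less RNA per cell cannot be told apart.

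A monocyte that presents antigen to a T-cell also passes signals through paired surface proteins. CD80 and CD86 engage CD28 to costimulate the T-cell and CTLA-4 to restrain it, and ICOSL engages ICOS. CD40 works in the other direction, since its ligand on activated T-cells drives NF-kappa B signalling in the antigen-presenting cell. PD-L1 and PD-L2 engage PD-1 and dampen T-cell activation, and galectin-9 binds several surface proteins, TIM-3 among them. IFN-γ, acting through JAK1 and JAK2, is a well-known inducer of PD-L1, and CTLA-4 on Tregs can strip CD80 and CD86 from antigen-presenting cells.

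Cd274 and Pdcd1lg2 are neighbours on chromosome 19, and both they and Lgals9 are known interferon-responsive genes. For these 3 the 250 bases before the start site are shown, 5′ to 3′ on the gene's own strand, from RefSeq on GRCm38.p6, the assembly that mm10 names. Capitals mark matches to the interferon regulatory factor core AANNGAAA, to the longer ISRE core, which is that core with GA before it, or to the kappa B consensus, each searched on both strands.

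Cd274, plus strand, chr19:29367188-29367437: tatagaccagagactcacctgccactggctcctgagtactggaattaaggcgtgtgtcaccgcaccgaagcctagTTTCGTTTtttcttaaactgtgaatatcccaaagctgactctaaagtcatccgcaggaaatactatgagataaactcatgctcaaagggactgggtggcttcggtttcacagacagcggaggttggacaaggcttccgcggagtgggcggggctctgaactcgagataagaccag

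Pdcd1lg2, plus strand, chr19:29410669-29410918: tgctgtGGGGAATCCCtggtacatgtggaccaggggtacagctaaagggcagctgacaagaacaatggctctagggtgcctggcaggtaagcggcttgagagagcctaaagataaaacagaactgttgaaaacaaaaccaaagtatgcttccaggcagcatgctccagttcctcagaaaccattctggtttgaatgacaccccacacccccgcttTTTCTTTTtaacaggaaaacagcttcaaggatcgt

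Lgals9, minus strand, chr11:78984925-78985174: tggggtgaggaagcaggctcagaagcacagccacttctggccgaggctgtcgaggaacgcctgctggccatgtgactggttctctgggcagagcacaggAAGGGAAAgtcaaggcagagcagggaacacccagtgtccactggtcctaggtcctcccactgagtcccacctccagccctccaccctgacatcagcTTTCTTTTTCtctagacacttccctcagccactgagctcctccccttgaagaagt

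The window searched ran from 250 bases before to 50 bases after the start site, and was at hand for 6 of the 8 genes, Cd86 and Cd40 having no entry. The Cd274 window held 1 interferon regulatory factor core, 175 bases before the start, and no match to the ISRE core, to the interferon-gamma activated site (GAS) core TTCNNNGAA or to the kappa B consensus. The Pdcd1lg2 window held 1 such core and 1 kappa B match, and the Lgals9 window held 3 cores, 2 of which were part of ISRE matches, 1 of these beyond the start. Cd80 and Pdcd1 held 1 core each and Icosl none. Of 32851 windows of this length, 23.9% held the interferon regulatory factor core, 3.44% the ISRE core, 8.30% the GAS core and 4.51% the kappa B consensus, and a match describes letters, not a binding site.

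Of the inhibitory ligands, Cd274 was much more abundant in monocytes of Foxp3DTR mice than of WT mice after MI. Its level was 51.7, 61.4, 68.3 and 39.3 scaled TPM in Foxp3DTR MI replicates 1 to 4. In WT MI replicates 2, 3 and 4 it was 16.9, 16.3 and 12.6 scaled TPM, and in WT sham replicates 1, 2 and 3 it was 11.4, 17.5 and 24.6 scaled TPM. The lowest Foxp3DTR library lay above the highest WT library, whereas the WT MI and sham groups overlapped. The means were 55.2 ± 12.6 (SD, n = 4), 15.3 ± 2.32 (SD, n = 3) and 17.8 ± 6.58 scaled TPM (SD, n = 3) in the same order. On the scale of log2(scaled TPM + 1), Cd274 rose by 1.77 in Foxp3DTR MI against WT MI (SE 0.25, 95% interval 1.21 to 2.33, adjusted p = 0.0199 in limma), and the ratio of the mean levels was 3.61. By p, Cd274 ranked 16 of the 12938 genes tested, and by size of the rise 102. The adjusted p rose above 0.05 when any 1 of WT MI replicates 2, 3 or 4 or Foxp3DTR MI replicates 1, 2 or 3 was left out, at log2 differences of 1.65 to 1.84 and adjusted p of 0.0516 to 0.0685.

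The deposited coverage of Cd274 corresponds to about 350 to 702 reads of 45 bases in each Foxp3DTR library and about 76 to 285 in each WT library. The gene lies at chr19:29367438-29388094 on the plus strand of mm10 (ENSMUSG00000016496.7), and no other entry overlaps it.

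Pdcd1lg2, the second PD-1 ligand, begins 43.5 kb downstream (chr19:29410919-29472927, plus strand) and was close to the detection limit in every library. Its level was 1.61, 0.492, 0.924 and 1.29 scaled TPM in Foxp3DTR MI replicates 1 to 4. WT MI replicates 2, 3 and 4 had 0.494, 0.997 and 0.167 scaled TPM, and the sham replicates 1, 2 and 3 had 0.130, 0.687 and 1.82 scaled TPM. All 3 groups overlapped, and its coverage was 0.013 to 0.262 over the 10 libraries. The reads behind it are not given, since its entry runs 1766 bases past the nearest annotated transcript. The log2 difference between the MI groups was 0.42 (SE 0.37, 95% interval -0.39 to 1.24, adjusted p = 0.583 in limma), an interval that holds rises of up to 1.24 as well as falls. Cd274 exceeded Pdcd1lg2 by a ratio of 13.5 to 125 over the 10 libraries.

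Pdcd1, the receptor PD-1, is chiefly a T-cell gene and was also rare. Foxp3DTR MI replicates 1 to 4 had 0.940, 1.23, 1.78 and 2.89 scaled TPM, and WT MI replicates 2, 3 and 4 had 0.442, 0.173 and 0.887 scaled TPM. In the sham group it was listed at 0 in replicates 1 and 2 and had 3.74 scaled TPM in replicate 3. Foxp3DTR and WT MI libraries did not overlap, but the highest level of all was in the sham library that stood apart in T-cell markers. About 1 to 3 reads stood behind each WT MI value and 4.9 to 13.7 behind each Foxp3DTR value. The log2 difference between the MI groups was 0.83 (SE 0.53, 95% interval -0.34 to 2.00, adjusted p = 0.447 in limma). Against sham, the log2 difference of the WT MI group was -0.19 with all libraries and 0.56 without sham replicate 3.

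**Figure D1:**
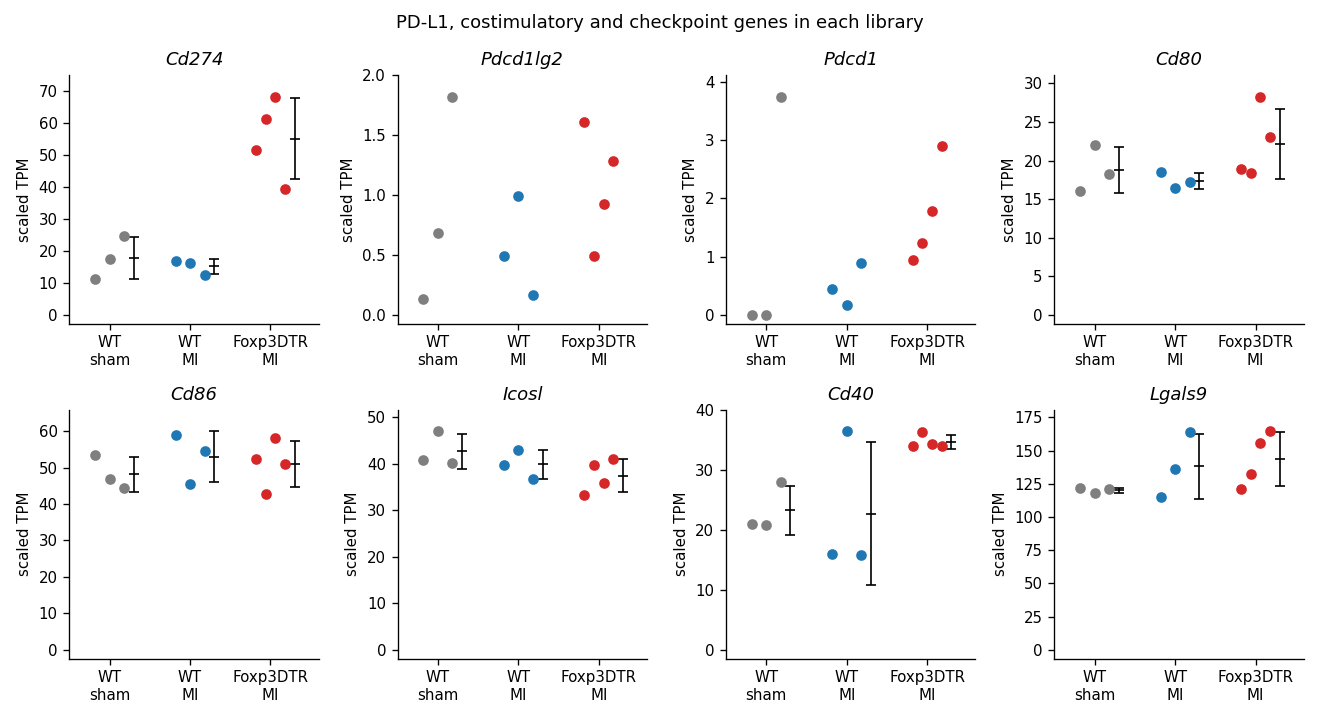
Level of each of the 8 genes in each library, with scaled TPM on a linear vertical axis and the 3 groups on the horizontal axis. Points are libraries and bars the mean and SD, left out for Pdcd1 and Pdcd1lg2. The 4 Foxp3DTR points of Cd274, from 39.3 to 68.3, lie above all 6 WT points, and 1 WT MI point of Cd40, 36.4, lies at the level of the Foxp3DTR libraries.

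The classical costimulatory pair did not pass the test. Cd80 (chr16:38458933-38486932, plus strand) was at 18.9, 18.3, 28.3 and 23.0 scaled TPM in Foxp3DTR MI replicates 1 to 4. It was at 18.5, 16.4 and 17.2 scaled TPM in WT MI replicates 2, 3 and 4 and at 16.0, 22.0 and 18.3 scaled TPM in sham replicates 1, 2 and 3. Foxp3DTR replicate 2 fell between WT MI replicates, so the groups overlapped. The log2 difference was 0.31 (SE 0.17, 95% interval -0.06 to 0.68, adjusted p = 0.362 in limma).

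Cd86 (chr16:36603869-36666077, minus strand) was at a higher level than Cd80 in every library. It measured 52.3, 42.6, 58.0 and 50.9 scaled TPM in Foxp3DTR MI replicates 1 to 4, then 59.0, 45.5 and 54.6 scaled TPM in WT MI replicates 2, 3 and 4. The sham replicates 1, 2 and 3 had 53.5, 46.8 and 44.3 scaled TPM, and the 3 groups overlapped throughout. Its log2 difference between the MI groups was -0.06 (SE 0.13, 95% interval -0.35 to 0.24, adjusted p = 0.857 in limma), an interval that holds no rise above 0.24. Without scaling the estimate was 0.18.

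Icosl (chr10:78069368-78079525, plus strand), the ligand of ICOS, was at 33.3, 39.6, 35.8 and 40.9 scaled TPM in Foxp3DTR MI replicates 1 to 4. WT MI replicates 2, 3 and 4 had 39.7, 43.0 and 36.8 scaled TPM and sham replicates 1, 2 and 3 had 40.7, 46.9 and 40.2 scaled TPM. The groups overlapped. Between the MI groups the log2 difference was -0.09 (SE 0.11, 95% interval -0.34 to 0.15, adjusted p = 0.712 in limma), and 0.15 without scaling.

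Cd40 (chr2:165055636-165071654, plus strand), the receptor for the T-cell signal, gave the second smallest p of the 8 genes. Foxp3DTR MI replicates 1 to 4 lay close together at 34.0, 36.3, 34.3 and 34.0 scaled TPM. WT MI replicates 2 and 4 were at 16.0 and 15.8 scaled TPM but replicate 3 was at 36.4 scaled TPM, above every Foxp3DTR library. Sham replicates 1, 2 and 3 were at 21.0, 20.8 and 28.0 scaled TPM, each below the lowest Foxp3DTR library. The log2 difference between the MI groups was 0.70 (SE 0.25, 95% interval 0.14 to 1.25) with an unadjusted p of 0.0191 and an adjusted p of 0.192 in limma. It depended on 1 library, since without WT MI replicate 3 it was 1.08 with an adjusted p of 0.0454. That library also had the highest dendritic cell marker sum of its group, 121 scaled TPM against 75.1 and 93.8. In sham replicates 1, 2 and 3 that sum was 91.4, 171 and 85.5 scaled TPM, and its part in the level of Cd40 was not tested.

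Lgals9 (chr11:78962979-78984924, minus strand) was the most abundant of the 8 genes in all 10 libraries. It measured 121, 132, 156 and 164 scaled TPM in Foxp3DTR MI replicates 1 to 4, then 115, 136 and 164 scaled TPM in WT MI replicates 2, 3 and 4. The sham replicates 1, 2 and 3 were at 122, 118 and 121 scaled TPM, and the MI groups overlapped. Its log2 difference between the MI groups was 0.06 (SE 0.14, 95% interval -0.25 to 0.36, adjusted p = 0.861 in limma).

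Read together, 1 of the 8 genes passed the test in Foxp3DTR MI against WT MI, where 1.12% of all tested genes did (0.688% higher and 0.433% lower). The 8 genes were chosen with earlier results of these data known, so shares of all genes stand beside their counts as a description. At an unadjusted p under 0.05 there were 2, Cd274 and Cd40, where 17.7% of all tested genes were. Cd274 and Pdcd1, 2 of the 8, were higher without overlap of the groups, where 9.97% of all tested genes were. The log2 difference was positive in 6 of 8 genes, against 50.1% of all tested genes, with a median of 0.37 (0.00080 over all tested genes). All 8 genes passed the filter of 1 TPM in at least 3 libraries. Pdcd1 passed through its 4 Foxp3DTR libraries and 1 sham library, and Pdcd1lg2 through 2 Foxp3DTR libraries and 1 sham library, so neither reached 1 TPM in a WT MI library. Both are among the 6 genes with a positive difference, and Pdcd1 is among those without overlap. These counts and the median were thus partly fixed by the filter and are a description.

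Between WT MI and WT sham, none of the 8 genes passed the test, as was true of all 12938 genes tested in limma (0%). At an unadjusted p under 0.05 there were 600 genes, or 4.64%, and none of the 8. The 3 libraries of 1 group and the 3 of the other overlapped for each of the 8, where 6.91% of all tested genes did not overlap. The log2 differences were -0.16 for Cd274, -0.21 for Pdcd1lg2, -0.09 for Cd80, 0.13 for Cd86, -0.09 for Icosl, -0.13 for Cd40 and 0.19 for Lgals9, with adjusted p of 0.962 to 0.993 over all 8 in limma. Their median with Pdcd1 was -0.11 (-0.0018 over all tested genes). The intervals were wide, from -0.75 to 0.44 for Cd274 and from -0.72 to 0.47 for Cd40, so moderate differences in either direction were not resolved. Cd274 turned to 0.094 without sham replicate 3.

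Foxp3DTR MI against WT sham shares its libraries with both other comparisons and mixes genotype, surgery and possibly toxin. Cd274 rose by 1.61 (SE 0.25, 95% interval 1.06 to 2.17, adjusted p = 0.0375 in limma), 1 of the 8 where 0.541% of all tested genes passed (0.386% higher). It passed in 9 of 20 alternatives. The call was lost without sham replicate 1 or 2, WT MI replicate 2 or 3, or any 1 of the 4 Foxp3DTR libraries (adjusted p up to 0.127), and also without a filter, with only these groups fitted and without a variance trend (adjusted p of 0.0823, 0.0684 and 0.0543). Without sham replicate 3 the difference was 1.86 with an adjusted p of 0.00475. Cd274 and Cd40 were higher without overlap, where 9.8% of all tested genes were. The log2 difference of Cd40 was 0.57 (SE 0.25, 95% interval 0.01 to 1.12, adjusted p = 0.262 in limma).

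**Figure D2:**
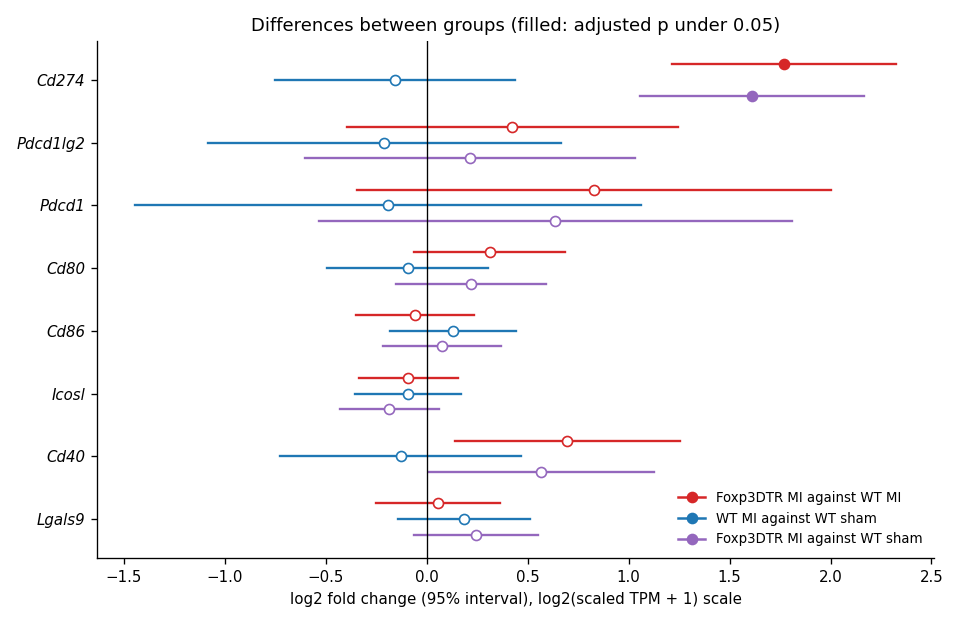
Fitted log2 differences of the 8 genes with 95% intervals, on the log2(scaled TPM + 1) scale, for the 3 comparisons in 3 colours. Filled points passed an adjusted p of 0.05, which only the 2 Cd274 contrasts with Foxp3DTR mice did (1.77 and 1.61).

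The balance of the ligands within a library followed from these levels. Cd274 was the fifth or sixth most abundant of the 8 genes in every WT library and the second to the fourth in every Foxp3DTR library. The ratio of Cd274 to Cd86 was 0.771 to 1.44 in Foxp3DTR MI, 0.231 to 0.359 in WT MI and 0.213 to 0.555 in WT sham libraries. The ratio of Cd274 to Cd80 was 1.71 to 3.35, 0.731 to 0.993 and 0.712 to 1.34 in the same order. The ratio of Cd80 to Cd86 was 0.362 to 0.488 in Foxp3DTR MI, 0.314 to 0.362 in WT MI and 0.299 to 0.470 in WT sham libraries. The ratios do not depend on the scaling and are given as a description with no test.

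The surroundings of Cd274 were measured next. Within 250 kb of Cd274 or Pdcd1lg2 the tables list 13 entries, 9 of which were tested. Jak2, a kinase bound to the IFN-γ receptor, starts 116 kb upstream, and it rose by 0.73 in Foxp3DTR MI against WT MI (SE 0.08, adjusted p = 0.0151 in limma), from 82.3 to 83.6 scaled TPM up to 130 to 143. Against WT sham the rise was 0.64 (SE 0.08, adjusted p = 0.0210 in limma). The first of these calls was lost without WT MI replicate 2 (adjusted p = 0.0646) or Foxp3DTR MI replicate 3 (adjusted p = 0.0592). Plgrkt, a plasminogen receptor whose start lies 5.57 kb from that of Cd274 on the other strand, had 63.6 to 69.1 scaled TPM in Foxp3DTR MI and 45.4 to 59.9 in WT MI libraries, without overlap, at a log2 difference of 0.36 (SE 0.12, adjusted p = 0.158 in limma). Farther out, Ric1, Ermp1, 9930021J03Rik and Rcl1 had log2 differences of 0.19, 0.17, -0.04 and 0.02, with adjusted p of 0.416 to 0.980 in limma. Insl6, at 0 to 5.61 scaled TPM, could not be resolved (0.39, SE 0.64).

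**Figure D3:**
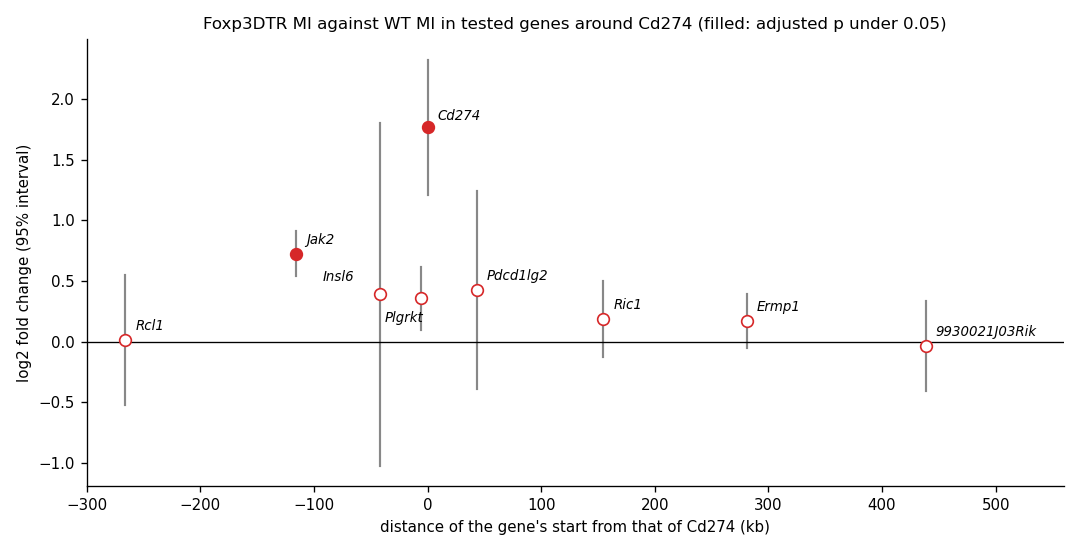
Log2 difference between Foxp3DTR MI and WT MI with its 95% interval (vertical axis) for the 9 tested genes around Cd274, by the distance of each gene's start from that of Cd274 in kb (horizontal axis). Filled points passed an adjusted p of 0.05, namely Jak2 (0.73) and Cd274 (1.77).

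Of IFN-γ receptor signalling and PD-L1 stability, 19 genes are reported, of which 2 rose in Foxp3DTR MI against WT MI and none fell, where 0.688% and 0.433% of all tested genes did, with a median log2 difference of 0.022. The lists, too, were chosen with earlier results of these data known, so their counts are a description. Besides Jak2, Socs1, a feedback inhibitor of JAK kinases, rose by 2.74 (SE 0.37, adjusted p = 0.0153 in limma), from 5.41 to 6.93 scaled TPM up to 30.8 to 61.1. Irf1, an interferon-induced transcription factor, was at 264 to 439 scaled TPM against 85.1 to 179 and did not pass (1.50, SE 0.36, adjusted p = 0.0723). The call of Socs1 was lost without WT MI replicate 2 or 3 or Foxp3DTR MI replicate 2 or 3 (adjusted p up to 0.0667). Against sham, Socs1 was 1.61 higher (adjusted p = 0.0856). Ifngr1, which encodes the ligand-binding chain of the IFN-γ receptor, was at 494 to 629 scaled TPM in Foxp3DTR MI and 717 to 846 in WT MI libraries, without overlap, and did not pass (-0.43, SE 0.16, adjusted p = 0.196).

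Of other costimulatory and checkpoint ligands and their partners, 30 of 32 symbols had an entry and 22 were tested. Cd200r1, the inhibitory receptor for CD200 on myeloid cells, rose by 0.96 (SE 0.19, adjusted p = 0.0498 in limma), from 12.5 to 16.3 scaled TPM in WT MI up to 26.6 to 30.0 in Foxp3DTR MI libraries. It was 1.15 higher than in sham (SE 0.19, adjusted p = 0.0427 in limma), but against WT MI the call was lost without any 1 of the 7 MI libraries or without sham replicate 1 (adjusted p up to 0.139). It was also lost with a replicate block, without a filter, without a variance trend and at a pseudocount of 0.1 (adjusted p of 0.107, 0.0878, 0.0702 and 0.0524), and it passed in 8 of 20 alternatives. None fell, and the median of the 22 was 0.15. Fgl2, which encodes a secreted or membrane-bound immunoregulatory protein, was at 540 to 767 scaled TPM against 174 to 306 (1.29, SE 0.31, adjusted p = 0.0699). Tnfrsf14, the ligand of BTLA, was at 93.0 to 139 against 45.6 to 85.2 scaled TPM (0.90, SE 0.26, adjusted p = 0.114). Cd24a, which encodes a small glycoprotein bound by Siglec receptors, was at 46.1 to 84.8 against 19.6 to 30.9 scaled TPM (1.46, SE 0.53, adjusted p = 0.197), and sham libraries reached 125. Of the 22, 6 were higher and 2 lower without overlap, where 9.97% and 9.02% of all tested genes were. Among the 6, Tnfsf8 was at 1.15 to 1.96 scaled TPM in Foxp3DTR MI and 0.191 to 0.744 in WT MI libraries. It passed the filter of 1 TPM through libraries outside WT MI only, so the count of 6 was partly fixed by the filter and is a description.

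The receptors that T-cells use to read these ligands were mostly at the level of a few TPM. Of 15 tested, 0 passed in limma and 7 had an unadjusted p under 0.05, as did 17.7% of all tested genes. Of the 15, 7 were higher without overlap in Foxp3DTR MI than in WT MI and 1 was lower, where 9.97% and 9.02% of all tested genes were. Among the 7, Cd96, Lag3, Icos, Tigit, Cd28 and Tnfrsf9 were under 1 scaled TPM in every WT MI library. They passed the filter of 1 TPM through other libraries only, so these counts were partly fixed by the filter and are a description. The median log2 difference was 1.00, the value of Cd40lg. It depends on the pseudocount, since Cd40lg was at 0 to 0.341 scaled TPM in WT MI libraries. Cd96, a nectin receptor of T- and NK cells, was listed at 0 in all 3 WT MI libraries and had 1.01 to 4.68 scaled TPM in Foxp3DTR MI libraries (adjusted p = 0.0961). Icos had 1.70 to 7.78 against 0 to 0.351 scaled TPM (adjusted p = 0.169), and Tigit, an inhibitory receptor for PVR, had 0.748 to 8.03 against 0 to 0.442 scaled TPM (adjusted p = 0.123). Sham libraries reached 7.85 for Icos and 7.62 for Tigit. Cd244, the receptor for CD48, which monocytes also carry, went the other way, at 193 to 236 against 298 to 357 scaled TPM (-0.57, SE 0.14, adjusted p = 0.0757).

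Genes that carry the CD40 signal to NF-kappa B were tested as a list of 14. None passed in limma in any of the 3 comparisons, with 1 at an unadjusted p under 0.05 between the MI groups, 0 between WT MI and WT sham and 3 between Foxp3DTR MI and WT sham. Of all tested genes 17.7%, 4.64% and 18.6% were under it in the same order. The median between the MI groups was -0.21. Map3k14, the NF-kappa B inducing kinase, was at 29.2 to 34.3 scaled TPM in Foxp3DTR MI and 36.3 to 62.8 in WT MI libraries (-0.62, SE 0.22, adjusted p = 0.196). The NF-kappa B subunits Relb and Nfkb1 differed by -0.52 (SE 0.24, adjusted p = 0.289) and -0.25 (SE 0.13, adjusted p = 0.353), and Birc2, a ubiquitin ligase of the pathway, by 0.18 (SE 0.12, adjusted p = 0.462). Between WT MI and WT sham, 0 genes of each of the 4 lists passed in limma, with 0 to 1 in each at an unadjusted p under 0.05.

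**Figure D4:**
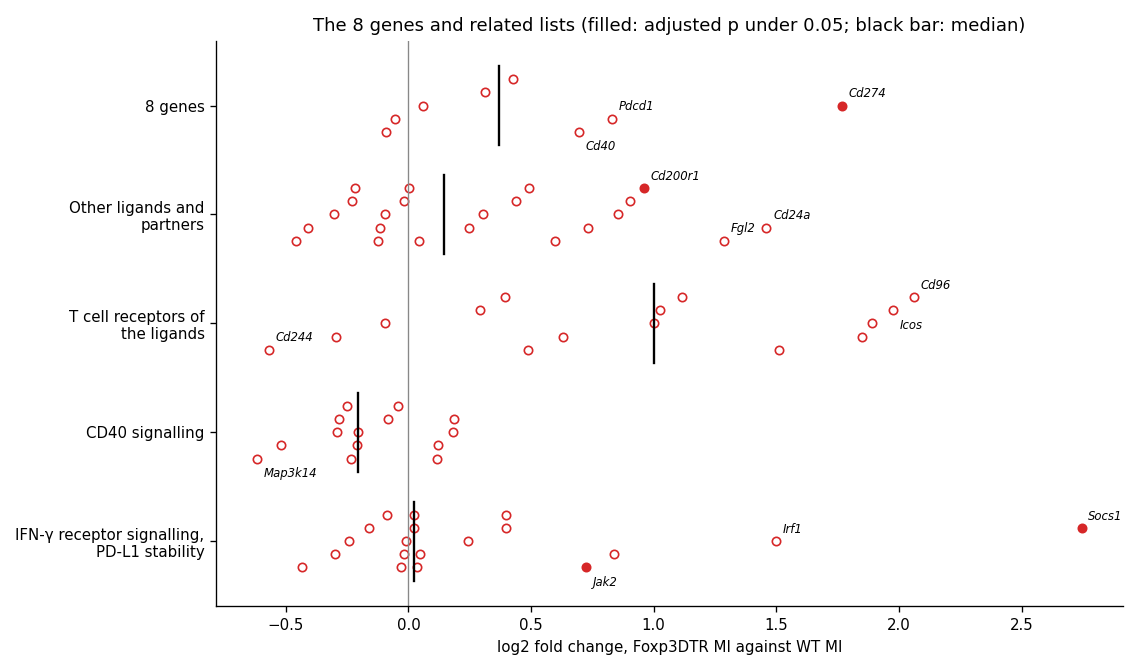
Log2 difference between Foxp3DTR MI and WT MI (horizontal axis) of the 8 genes and of the tested genes of the 4 related lists, 1 point per gene and 1 row per list. Filled points passed an adjusted p of 0.05 and black bars are medians, from -0.21 for CD40 signalling to 1.00 for the T-cell receptors of the ligands.

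Marker sums of other cell types differed between the groups, and the part of other cells in the levels of the 8 genes was not tested. A sum does not show which cells its RNA came from. T-cell markers summed to more in each Foxp3DTR library than in any WT MI library, as did NK cell markers (85.4 to 188 against 34.1 to 63.5 scaled TPM), neutrophil markers and plasma cell markers (29.7 to 105 against 4.62 to 14.1). Dendritic cell markers summed to less (37.2 to 51.1 against 75.1 to 121), as did those of red pulp macrophages (154 to 217 against 252 to 327), and B-cell markers were low in both groups (11.9 to 19.1 and 18.4 to 21.3). The single markers behind the lower sums did not all fall. Among dendritic cell markers, Flt3 was lower (4.77 to 14.5 against 28.1 to 65.4) but Siglech higher (1.76 to 3.27 against 0.895 to 1.52). Among macrophage markers, Hmox1 was lower (104 to 144 against 177 to 248), while C1qb overlapped (15.8 to 26.0 against 6.97 to 18.7) with a higher median. Monocyte markers summed to 22834 to 36277 in Foxp3DTR MI and 41013 to 45897 in WT MI libraries. Among defining markers, Pax5, Retnlg, Mzb1 and Tnfrsf17 were listed at 0 in all WT MI libraries.

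Cd274 and the marker sums are set side by side by library, as a description. In sham replicates 1, 2 and 3, T-cell markers summed to 13.3, 26.4 and 161 and neutrophil markers to 393, 347 and 1309 scaled TPM, beside Cd274 at 11.4, 17.5 and 24.6 scaled TPM. In WT MI replicates 2, 3 and 4 the T-cell sums were 7.83, 12.9 and 14.0 and the neutrophil sums 483, 169 and 413, beside Cd274 at 16.9, 16.3 and 12.6 scaled TPM. In Foxp3DTR MI replicates 1 to 4 the T-cell sums were 35.2, 128, 83.9 and 121 and the neutrophil sums 1122, 2015, 1507 and 2769, beside Cd274 at 51.7, 61.4, 68.3 and 39.3 scaled TPM. Among the WT libraries, sham replicate 3 was highest in both sums and in Cd274. Its T-cell sum was also above those of all 4 Foxp3DTR libraries, while its Cd274 was below all of theirs. Foxp3DTR MI replicate 4 had the highest neutrophil sum and the lowest Cd274 of its group. Pdcd1 was highest of all 10 libraries in sham replicate 3, at 3.74 scaled TPM.

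**Figure D5:**
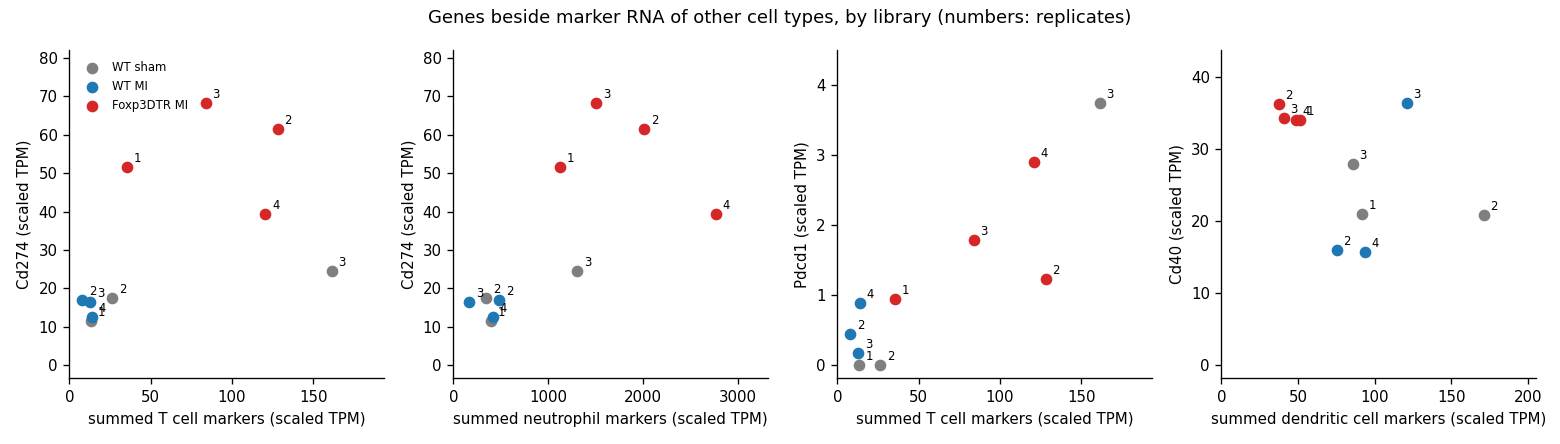
Levels of Cd274, Pdcd1 and Cd40 (vertical axes, scaled TPM) beside the summed levels of markers of T-cells, neutrophils or dendritic cells (horizontal axes, scaled TPM) in each of the 10 libraries, numbered by replicate. WT sham replicate 3 has the highest T-cell sum, 161, with the highest Pdcd1, 3.74, and the highest Cd274 of the WT libraries, 24.6. That Cd274 level is below those of all 4 Foxp3DTR libraries. All 4 Foxp3DTR libraries have higher T-cell and neutrophil sums and Cd274 than the WT MI libraries.

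The genes whose log2 levels followed each of the 8 most closely over the 10 libraries were looked up among 10146 genes with a mean of at least 5 TPM. For Cd274 they were Gm4951 (Pearson's r = 0.98), Jak2 (0.97) and Ankib1 (0.97). For Cd40 they were Il21r (0.97), Zfp518b (0.96) and Hivep2 (0.96), and for Lgals9 the first was Lgals3bp (0.97). For Cd86 the first was Pla2g7 (0.94), for Pdcd1lg2 Ngfrap1 (0.93), for Pdcd1 Sept1 (0.92), for Icosl Mfng (0.92) and for Cd80 Srp68 (0.88). The libraries fall into groups and share depth and cell composition, so these are descriptions of likeness over 10 libraries with no test.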

How the data were processed

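RNA sequencing of Ly6Chigh splenic monocytes gave 10 libraries. Cells were sorted as CD11b+ Ly6G- F4/80+ CD115+, per the study's methods. Tools named in the submitters' processing notes, without order or options, are STAR 2.5, StringTie 1.3.0, cutadapt 1.1 and CASAVA 1.4, and the build is mm10. The authors deposited 1 StringTie table per library with each gene's coverage (a signal, mean depth over exons), FPKM (per kilobase and 1e6 fragments) and TPM. TPM sums to 1e6 per library, so a few abundant RNAs shift all others. The tables that the authors deposited hold no counts, so the DESeq2 test of the study was not used. Depth was inferred from coverage, FPKM and a read length of 45 bases. That length was the commonest product of coverage and exonic length among products under 150. Only genes with 1 annotated transcript of exactly the listed span were used for it. No counting interval is given.

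TPM was summed per symbol and divided by a median-of-ratios factor. A filter of at least 1 TPM in 3 or more libraries left 12938 of 24421 genes. limma 3.58.1 in R 4.3.3 fitted log2(scaled TPM + 1) by group over all 10 libraries with a variance trend, two-sided, with Benjamini-Hochberg adjustment over all genes tested. A fold change on this scale is understated in low genes. The fit was tested on simulated data. The median log2 difference over all genes in unscaled TPM was 0.22 (Foxp3DTR MI against WT MI), -0.17 (WT MI against WT sham) and 0.05 (Foxp3DTR MI against WT sham). Differences are relative to the median gene.

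The 8 genes and the lists were chosen with earlier results of these data known. One gene of a list is not reported here. Text names the 8 genes, and of each list those past the threshold and the 4 of lowest p, tested genes within 250 kb of Cd274, and 3 genes of most like pattern. Alternatives were 10 settings and the removal of each of 10 libraries. Strand handling was not given in the sources used here.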

Additional observations from a re-analysis of the deposited data

Results flagged for a closer look

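Cd40 in Foxp3DTR MI replicate 2, at 36.3 scaled TPM, lay farther from the other 3 libraries of its group (34.0 to 34.3) than Dixon's 95% critical value allows for a group of 4. The whole range of the group is small, and chance gives such a gap in about 1 of 20 groups. The check covered the 8 genes in the group of 4 only. The groups of 3 were not checked, among them WT MI, where Cd40 was at 36.4 scaled TPM in replicate 3 against 16.0 and 15.8.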

How the results depend on the processing

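Genes past the threshold numbered 145 in Foxp3DTR MI against WT MI. They numbered 527 without scaling, 22 without a filter, 578 with only the 2 groups, 66 without a variance trend, 398 with array weights and 0 to 431 with 1 library left out. Of the 8 genes, 1 passed, with 0 without a filter and 0 to 1 with 1 library left out. Without WT MI replicate 3 the gene that passed was Cd40 (adjusted p = 0.0454 in limma) and not Cd274 (adjusted p = 0.0550 in limma). Without a filter Cd274 was at 1.77 with an adjusted p of 0.0541, and with 1 library left out it was at 1.65 to 1.92. It passed in 13 of 20 alternatives. In WT MI against WT sham the count was 0, with 3 in a fit of only the 2 groups and 0 to 2 with 1 library left out. In Foxp3DTR MI against WT sham it was 70, with 23 at a pseudocount of 0.1, 11 without a filter, 10 with only the 2 groups, 28 without a variance trend and 3 to 636 with 1 library left out. Of the 8 genes 1 passed there, with 0 without a filter, 0 with only the 2 groups, 0 without a variance trend and 0 to 1 with 1 library left out. The causes were not tested, apart from the change of samples or of genes tested that an alternative makes itself.

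Libraries with the same replicate number in different groups correlated at -0.19 to 0.19, and those with different numbers at -0.20 to 0.18. With so few libraries per group, these values cannot decide whether libraries of the same number share more than that number. With a replicate block, 81 genes passed in Foxp3DTR MI against WT MI and 16 in Foxp3DTR MI against WT sham.

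Small values changed sign in 24 of 881 single-gene values. Foxp3DTR MI against WT MI without scaling gave 0.18 for Cd86, 0.15 for Icosl and 0.20 for 9930021J03Rik, and Rcl1 gave -0.011 with quantile normalization and -0.018 with array weights. With 1 library left out, Cd86 ranged from -0.16 to 0.026, Lgals9 from -0.067 to 0.18, Rcl1 from -0.19 to 0.27, Insl6 from -0.029 to 0.88 and 9930021J03Rik from -0.18 to 0.055. In WT MI against WT sham, Pdcd1 gave 0.64 at a pseudocount of 0.1 and Cd86 -0.047 without scaling. With 1 library left out there, Cd274 ranged from -0.43 to 0.094, Pdcd1 from -0.57 to 0.56, Cd80 from -0.20 to 0.020 and Cd40 from -0.51 to 0.068. Pdcd1lg2 ranged from -0.10 to 0.36 in Foxp3DTR MI against WT sham. TPM keeps no counting error, and Pdcd1 and Pdcd1lg2 rest on few reads.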
